A study of Mus musculus with 16 samples.

Results

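A set of 43 genes of mitosis and of the G2/M transition was followed in the dorsal skin of UVB-irradiated and no-UVB mice. The members were given by gene symbol, with earlier results of these data known, and were found through their Ensembl identifiers (GENCODE M39, GRCm39) among the 55359 genes counted in each mouse. All 43 were present and had enough counts to be tested in every comparison. RNA was taken from whole dorsal skin of wild-type mice labelled C57Bl/6, which the study's text names as C57Bl/6N, all 8 weeks old and all labelled telogen, the stage in which hair follicles rest. The 16 mice formed 4 groups of 4, namely UVB males, no-UVB males, UVB females and no-UVB females, and each mouse gave 1 library. UVB mice received 3 exposures of the back, 1 every 2 days, and their skin was collected 6 h after the last exposure, on day 5, while no-UVB mice carried the same genotype and were not irradiated.

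Cells enter mitosis when CDK1, bound to a B-type or A-type cyclin, becomes active at the end of G2, and they leave it when the anaphase-promoting complex marks cyclin B and securin for destruction. The genes of this machinery are transcribed together late in the cell cycle, under B-MYB (Mybl2), the MuvB core and FOXM1, and are held down in resting cells by the DREAM complex. In skin, dividing cells lie mainly in the basal layer of the epidermis and, during hair growth, in the hair matrix, and UVB is known first to arrest epidermal keratinocytes and later to make the epidermis thicken through cell division.

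Promoters of such genes are known for 2 short elements, the CCAAT box bound by NF-Y and the cell cycle homology region bound by MuvB, and the stretches of 4 members are shown to let a reader see how these letters are laid out. The windows held 250 bases before and 50 bases from the start of the canonical transcript of each gene in GENCODE M39, and were read from the GRCm39 genome. The letters searched were CCAAT or its reverse complement ATTGG, and TTTGAA, its reverse complement TTCAAA, or the palindrome TTCGAA, on both strands. *Top2a*, *Cdk1* and *Aurkb* are members that rose in both sexes, and *Ube2c* is the member whose log2 fold change changed sign with the counting of strands. Capitals mark the letters searched, and each stretch runs 5′ to 3′ on the strand of its gene, lies before the start of the canonical transcript and overlaps no annotated exon. The annotated *Cdk1* gene (chr10:69170976-69236595) reaches further upstream, so its stretch lies within the gene.
Top2a, chr11:98915063-98915201, minus strand: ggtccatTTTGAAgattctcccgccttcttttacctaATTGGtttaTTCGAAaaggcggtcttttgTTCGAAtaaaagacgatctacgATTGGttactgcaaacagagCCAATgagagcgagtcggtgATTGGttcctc
Cdk1, chr10:69188773-69188928, minus strand: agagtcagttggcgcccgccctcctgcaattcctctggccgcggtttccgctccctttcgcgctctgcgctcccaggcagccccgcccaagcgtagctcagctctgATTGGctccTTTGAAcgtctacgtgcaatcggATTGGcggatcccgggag
Aurkb, chr11:68936307-68936466, plus strand: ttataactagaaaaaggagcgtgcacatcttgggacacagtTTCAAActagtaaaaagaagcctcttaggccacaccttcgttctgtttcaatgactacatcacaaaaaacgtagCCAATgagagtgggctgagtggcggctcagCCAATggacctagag
Ube2c, chr2:164611658-164611767, plus strand: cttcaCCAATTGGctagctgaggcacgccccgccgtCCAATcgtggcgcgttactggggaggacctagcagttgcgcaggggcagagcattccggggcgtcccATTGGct
In the *Ube2c* stretch a CCAAT and an ATTGG share letters. The *Top2a* window held 6 CCAAT matches and 4 homology region matches, and that of *Ube2c* held 6 and 1.

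At least 1 CCAAT match was found in the window of 29 of the 43 members (67.4%), against 39.9% of 21627 windows of the same length. A homology region match was found in 25 members (58.1%), against 18.8% of all windows, and 20 members (46.5%) held both, against 8.25%. The share depended on the window, since with only the 250 bases before the start 21 members held a CCAAT match, 12 a homology region match and 9 both, against 36.5%, 17.03% and 6.70% of all windows. No match was found in the windows of 9 members, *Ccna2*, *Aurka*, *Kif2c*, *Tpx2*, *Birc5*, *Nusap1*, *Nuf2*, *Foxm1* and *Mybl2*. The median UVB response was about the same for both kinds of member, at 0.90 on the log2 scale in males for the 20 with both elements and 0.90 for the other 23, and at 0.46 and 0.47 in females. These matches are a description of letters, and binding was not measured.

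Libraries held 16495776 to 33404831 reads on genes (median 21767339), and the members together took 0.0399 to 0.0999% of them. The least counted member in any mouse was *Cdc25c*, with 33 reads. Levels are given as counts per 1000000 gene reads (CPM) after TMM scaling. The skin held the markers of basal keratinocytes in every mouse, with 8 of 8 at 1 CPM or more in each group and a summed level of 4802 to 12127 CPM. Hair shaft and matrix markers, which telogen skin should hardly express, set apart 2 of the no-UVB males, replicates 3 and 4, at a summed 94.1 and 128 CPM against 15.7 to 36.9 CPM in the other 14 mice. *Krt71*, a keratin of the inner root sheath, was at 21.1 and 39.8 CPM in those mice and at 1.75 CPM or less elsewhere. *Tchh*, which encodes trichohyalin of the same layer, was at 47.8 and 60.2 CPM against 8.36 to 21.7 CPM elsewhere. In the UVB males 4 of the 17 hair markers reached 1 CPM, and *Krt34*, *Krt81*, *Krt85*, *Krtap3-1* and *Krtap4-7* were at 0 in every mouse. Both *Krt71* and *Tchh* were singled out after their values were seen. The numbers of members called after UVB in males, and of genes called in the other lists, are given with and without these mice.

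UVB-irradiated skin held more mRNA of the mitotic genes in both sexes, and the difference was larger in the male comparison. The summed level of the 43 members was 418, 429, 677 and 560 CPM in the no-UVB males and 881, 1051, 942 and 896 CPM in the UVB males. In the no-UVB females it was 521, 543, 503 and 440 CPM, and in the UVB females 607, 699, 763 and 649 CPM. The UVB mice of each sex lay above all no-UVB mice of that sex, and UVB males lay above all UVB females. The ratio of the group means was 1.81 in males and 1.35 in females. In whole skin, more dividing cells and more RNA per dividing cell cannot be told apart.

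Mice of a group moved together across the members. The no-UVB male replicate 3, a mouse with high hair markers, had the highest level of its group for 41 of 43 members, and UVB male replicate 2 for 38. The lowest level among UVB females fell to replicate 1 for 25 members, and among no-UVB females to replicate 4 for 25 members. The median coefficient of variation over the members was 25.8% in the no-UVB males, against 9.26% in the UVB males, 12.0% in the no-UVB females and 11.9% in the UVB females. The members therefore share what is particular to a mouse, and each comparison rests on 4 mice per group.

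**Figure D1:**
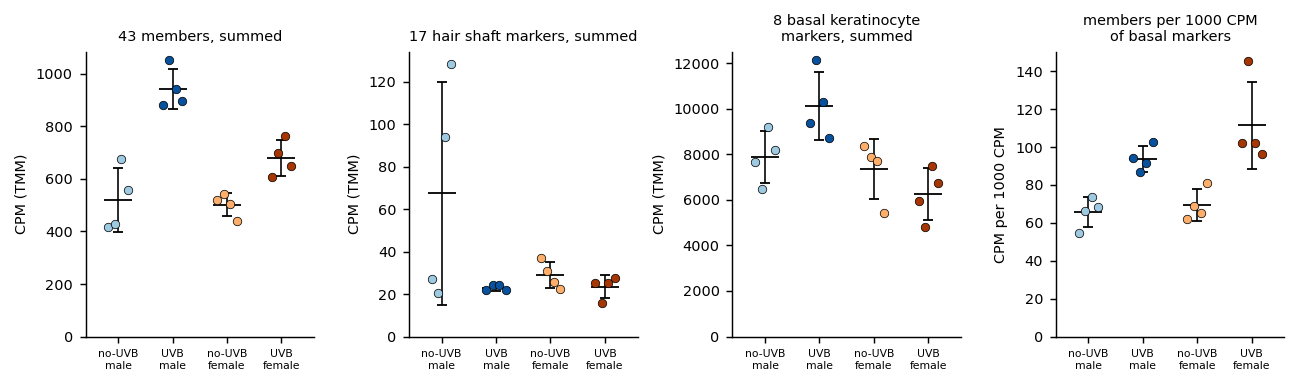
Each point is 1 mouse, and bars give the mean and SD of 4 mice. From left to right the panels plot the summed CPM of the 43 members, of 17 hair shaft and matrix markers and of 8 basal keratinocyte markers, and the members' CPM per 1000 CPM of basal markers. UVB mice lay above no-UVB mice of their sex for the members, and 2 no-UVB males stood apart for hair markers, at 94.1 and 128 CPM.

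The basal marker level differed between the groups as well. Summed over *Krt5*, *Krt14*, *Krt15*, *Col17a1*, *Itga6*, *Itgb4*, *Trp63* and *Lamb3*, it was 6456 to 9217 CPM in no-UVB males, 8723 to 12127 in UVB males, 5414 to 8367 in no-UVB females and 4802 to 7477 in UVB females. Per 1000 CPM of these markers, the members were at 54.4, 66.5, 73.5 and 68.5 CPM in the no-UVB males and at 94.0, 86.7, 91.4 and 103 CPM in the UVB males. In the no-UVB females the same measure was 62.3, 69.0, 65.1 and 81.3, and in the UVB females 102, 146, 102 and 96.3. UVB mice again lay above no-UVB mice of the same sex, but the UVB males no longer lay above the UVB females. The ratio of UVB to no-UVB means on this scale was 1.43 in males and 1.61 in females, or 1.44 in females without UVB female replicate 2. *Krt5*, *Krt14* and *Krt15* made up 75.1 to 85.7% of the basal sum, and the 8 markers did not move together. *Krt14* rose by 1.43 ± 0.23 in males and 0.47 ± 0.16 in females, while *Krt15* fell by 1.25 and 1.11 on the log2 scale. The part of the basal cell share in the sex difference was not tested further.

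Among the males, 41 of the 43 members were higher in the 4 UVB mice than in the 4 no-UVB mice at an adjusted p under 0.1 (edgeR's quasi-likelihood test, Benjamini-Hochberg over 16535 genes), against 29.0% of all genes tested. The median log2 fold change of the members was 0.90, against −0.02 over all genes. Past 1 on the log2 scale were 14 members, against 4.08% of all genes, or 7 with upper quartile scaling, against 3.50%. The count of 14 rose to 28 without no-UVB male replicate 3, against 5.08% of all genes, and fell to 6 without no-UVB male replicate 2, to 9 without no-UVB male replicate 1 and to 9 without UVB male replicate 2. None was lower by edgeR, by the unadjusted p under 0.05 (0 members) or by DESeq2's Wald test (0 members), against 30.5% of all genes by edgeR. For 39 members every UVB male exceeded every no-UVB male, against 22.9% of all genes.

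Without no-UVB males 3 and 4 the male log2 fold change was higher in value for 42 of 43 members. It grew by over 1.5 times for 10 of the 41 called members, from 0.72 to 1.14 for *Anln*, 0.61 to 1.18 for *Bub1b*, 1.03 to 1.56 for *Cdc20*, 0.62 to 0.99 for *Cenpa*, 0.45 to 0.82 for *Ect2*, 0.79 to 1.23 for *Foxm1*, 0.51 to 0.77 for *Kif23*, 0.83 to 1.42 for *Melk*, 0.88 to 1.41 for *Plk1* and 0.88 to 1.47 for *Spc24*. With any 1 mouse left out, 39 of the 41 calls were kept in all 8 fits, and those for *Bub1b* and *Ect2* in 5 of 8.

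Among the females, 30 of the 43 members were higher after UVB by the same test over 16883 genes, against 12.8% of all genes, with a median log2 fold change of 0.47 against 0.00 over all genes. These 30 were all among the 41 of the males. None was past 1 on the log2 scale and called by edgeR or by DESeq2 (0 members each), against 1.63% of all genes, the nearest being *Spc25* at 0.995. None was lower by edgeR, by the unadjusted p under 0.05 (0 members) or by DESeq2 (0 members), against 10.6% of all genes by edgeR. For 26 members the groups did not overlap, against 11.1% of all genes. With any 1 mouse left out, 23 of the 30 calls were kept in all 8 fits. The calls for *Nusap1* and *Mybl2* were kept in 6 of 8, that for *Bub1b* in 5, that for *Cdca8* in 4, and those for *Aurka*, *Plk1* and *Pbk* in 2. The other 13 members that did not pass the test in females are *Cdc25c*, *Nek2*, *Melk*, *Incenp*, *Ube2c*, *Cenpa*, *Cenpf*, *Nuf2*, *Kif2c*, *Kif20b*, *Kif23*, *Ect2* and *Racgap1*. Across the 43 members the male and female log2 fold changes had a Pearson correlation of 0.865, which is a description across genes of the same libraries. The standard errors ranged from 0.08 to 0.26 in males and from 0.09 to 0.19 in females.

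**Figure D2:**
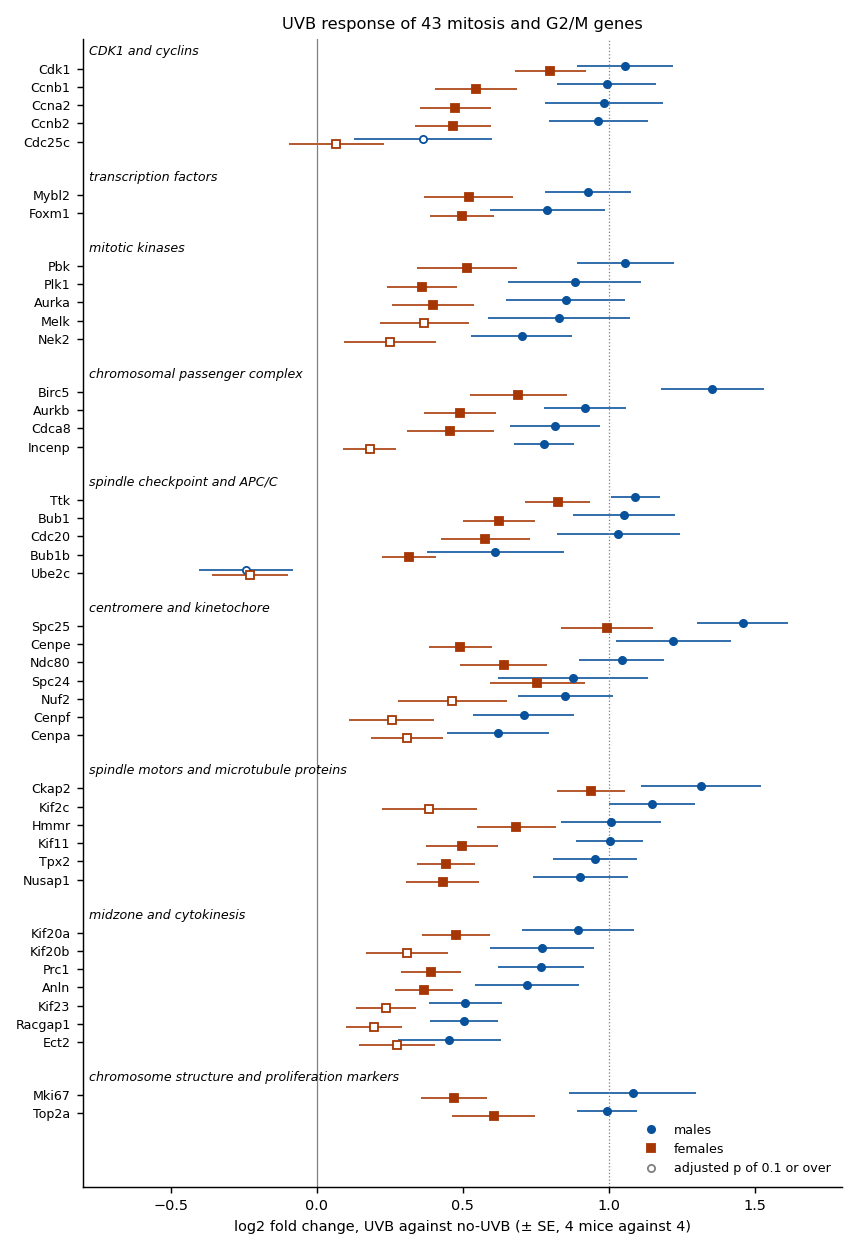
Log2 fold change (± SE) between UVB and no-UVB mice for each member, in males (circles) and females (squares), grouped by role. Open symbols have an adjusted p of 0.1 or over in edgeR's quasi-likelihood test, and the dotted line marks 1. For 42 of 43 members the male value exceeds the female value, and *Ube2c* lies below 0 in both sexes.

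CDK1 and the cyclins that drive entry into mitosis rose in both sexes, except the phosphatase gene *Cdc25c*. *Ccna2* (chr3:36619014-36626299, minus strand), which encodes cyclin A2 of S and G2 phase, was at 11.5, 12.6, 23.3 and 16.4 CPM in no-UVB males and at 28.7, 35.1, 31.8 and 29.1 CPM in UVB males. In females it was at 16.01, 19.0, 13.8 and 14.6 CPM without UVB and at 20.2, 23.3, 25.0 and 19.2 CPM with it. The groups of neither sex overlapped, and the highest no-UVB male, replicate 3, lay above the highest no-UVB female. The log2 fold change was 0.98 ± 0.20 (SE, 4 mice against 4) in males (edgeR, adjusted p = 0.00324) and 0.47 ± 0.12 in females (adjusted p = 0.0259). *Cdk1*, the kinase itself, rose by 1.05 ± 0.16 in males and by 0.80 ± 0.12 in females. *Ccnb1*, for cyclin B1, rose by 0.99 ± 0.17 and 0.54 ± 0.14, and *Ccnb2*, for cyclin B2, by 0.96 ± 0.17 and 0.47 ± 0.13.

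*Cdc25c* encodes the phosphatase that removes the inhibitory phosphates from CDK1. Its level was 1.54, 1.79, 2.60 and 3.27 CPM in no-UVB males and 2.89, 3.63, 2.69 and 2.40 CPM in UVB males, and the groups overlapped. In females it was 2.08, 2.45, 2.35 and 2.47 CPM without UVB and 2.21, 2.95, 2.40 and 2.14 CPM with it. The log2 fold change was 0.36 ± 0.24 in males (edgeR, adjusted p = 0.219) and 0.07 ± 0.16 in females (adjusted p = 0.822). The no-UVB males with the highest values were replicates 3 and 4, those with high hair markers, and without them the male value was 0.83 (adjusted p = 0.0137).

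The transcription factors of the program rose alike. *Foxm1* (chr6:128339518-128353147, plus strand) was at 7.22, 7.31, 13.1 and 11.3 CPM in no-UVB males and at 14.2, 19.2, 17.9 and 15.3 CPM in UVB males. In females its values were 8.87, 7.68, 7.46 and 8.33 CPM without UVB and 10.4, 11.6, 12.9 and 10.4 CPM with it, with no overlap in either sex. Its log2 fold change was 0.79 ± 0.20 in males (edgeR, adjusted p = 0.0073) and 0.50 ± 0.11 in females (adjusted p = 0.0128). *Mybl2* (chr2:162896435-162926614, plus strand), for B-MYB, was the lowest member per kilobase of transcript in every group but the UVB males, and ran from 3.31, 3.50, 4.63 and 3.38 CPM in no-UVB males to 6.69, 8.16, 6.12 and 7.03 CPM in UVB males. In females it ran from 3.03, 3.52, 2.81 and 2.32 CPM to 4.06, 4.47, 4.37 and 3.81 CPM. The groups did not overlap in either sex, and the log2 fold change was 0.93 ± 0.15 in males (edgeR, adjusted p = 0.000324) and 0.52 ± 0.15 in females (adjusted p = 0.0438).

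All 5 mitotic kinase genes rose in males, against 29.0% of all genes, and 3 of them in females, against 12.8%. Leaving out any 1 mouse left 5 called in males in each fit, and 0 to 2 in females. *Pbk*, for a kinase of dividing cells also known as TOPK, had the largest rise, 1.06 ± 0.17 in males and 0.51 ± 0.17 in females. *Aurka*, for the centrosome kinase Aurora A, rose by 0.85 ± 0.20 and 0.40 ± 0.14. The embryonic leucine zipper kinase gene *Melk* rose by 0.83 ± 0.24 in males and was at 0.37 ± 0.15 in females (edgeR, adjusted p = 0.128). *Nek2*, for a kinase that parts the centrosomes, rose by 0.70 ± 0.17 in males and was at 0.25 ± 0.16 in females (edgeR, adjusted p = 0.318).

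*Plk1* (chr7:121758646-121769108, plus strand), for the kinase that acts from mitotic entry to cytokinesis, was the highest by CPM of the 5 genes in this group, which leaves out *Cdk1*, *Aurkb*, *Ttk* and the *Bub1* genes described with their complexes. Its values were 3.82, 3.59, 7.66 and 6.02 CPM in no-UVB males and 10.4, 10.6, 9.50 and 7.71 CPM in UVB males. The lowest UVB male, replicate 4, lay only just above no-UVB male replicate 3. Female values were 5.28, 5.98, 4.81 and 5.10 CPM without UVB and 5.86, 6.81, 7.07 and 7.25 CPM with it, and the groups overlapped. *Plk1* rose by 0.88 ± 0.23 in males (edgeR, adjusted p = 0.00831) and by 0.36 ± 0.12 in females (adjusted p = 0.0684).

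The chromosomal passenger complex, which corrects faulty attachments of chromosomes to the spindle and then guides cytokinesis, held 1 of the 2 members whose male and female responses differed by test. *Incenp* (chr19:9846569-9876924, minus strand) encodes its scaffold. It was at 14.9, 15.7, 19.95 and 17.8 CPM in no-UVB males and at 26.5, 32.8, 28.7 and 27.7 CPM in UVB males, with no overlap. The females had 18.3, 17.3, 21.4 and 17.1 CPM without UVB and 19.4, 20.9, 21.4 and 22.02 CPM with it, and the groups overlapped. The log2 fold change was 0.78 ± 0.10 in males (edgeR, adjusted p = 9.9e-05) and 0.18 ± 0.09 in females (adjusted p = 0.21). *Birc5*, for survivin, rose by 1.36 ± 0.18 in males and 0.69 ± 0.16 in females. *Aurkb*, for the complex's kinase Aurora B, rose by 0.92 ± 0.14 and 0.49 ± 0.12, and *Cdca8*, for borealin, by 0.82 ± 0.15 and 0.46 ± 0.15.

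The spindle checkpoint holds anaphase until every chromosome is attached. The count of *Ube2c*, the highest of this role by mean CPM in all groups but the UVB females, is uncertain. *Ttk* (chr9:83703392-83755037, plus strand), for the checkpoint kinase MPS1, is therefore shown in every mouse, a choice made after its values were seen. It was at 10.1, 9.15, 11.3 and 10.3 CPM in no-UVB males and at 20.7, 22.6, 21.6 and 21.1 CPM in UVB males. In females it was at 10.6, 11.1, 10.04 and 10.5 CPM without UVB and at 15.7, 16.7, 20.6 and 21.3 CPM with it. Its no-UVB mice were closely alike in both sexes, the 2 males with high hair markers included. The log2 fold change was 1.09 ± 0.08 in males (edgeR, adjusted p = 2.94e-06) and 0.82 ± 0.11 in females (adjusted p = 0.00115). *Bub1*, for a checkpoint kinase, rose by 1.05 ± 0.17 and 0.62 ± 0.12, and *Cdc20*, for the APC/C activator that the checkpoint restrains, by 1.03 ± 0.21 and 0.58 ± 0.15. *Bub1b*, for the checkpoint protein BUBR1, rose by 0.61 ± 0.23 in males (edgeR, adjusted p = 0.0533), where the groups overlapped, and by 0.31 ± 0.09 in females. Its male call was lost without UVB male 1, UVB male 4 or no-UVB male 2 (0.45 to 0.88 over the 8 fits with a mouse left out).

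*Ube2c* (chr2:164611768-164620742, plus strand) encodes the ubiquitin-conjugating enzyme of the anaphase-promoting complex, and was the 1 member with a negative log2 fold change in both sexes. Counted on its own strand it was at 26.1, 29.2, 23.5 and 23.7 CPM in no-UVB males and at 16.8, 29.7, 19.0 and 20.6 CPM in UVB males. Female values were 18.3, 18.2, 19.4 and 19.3 CPM without UVB and 14.4, 19.7, 17.2 and 12.4 CPM with it. The log2 fold change was −0.24 ± 0.16 in males (edgeR, adjusted p = 0.234) and −0.23 ± 0.13 in females (adjusted p = 0.269).

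The gene overlaps *Tnnc2*, for the calcium-binding troponin C of fast skeletal muscle, on the other strand. *Tnnc2*, named here after its values were seen, was at 518 to 1202 CPM, and was higher in no-UVB males (808 to 1202 CPM) than in UVB males (583 to 701 CPM). In every mouse the stranded count of *Ube2c*, 268 to 634 reads, came to between 1.94 and 4.24 per 100 *Tnnc2* reads. Over all genes 3.63 to 4.23% of stranded reads lay opposite to the strand counted. That share also takes in reads of genes that lie on the other strand, so it is not a rate for *Tnnc2*. Counted without regard to strand, where reads that touch both genes are dropped as ambiguous, *Ube2c* had 127, 132, 189 and 125 reads in no-UVB males and 383, 256, 260 and 236 in UVB males. In females these reads numbered 181, 169, 169 and 123 without UVB and 204, 280, 239 and 214 with it. By this count no UVB mouse overlapped a no-UVB mouse of either sex, and *Ube2c* rose by 1.01 ± 0.14 in males (edgeR, adjusted p = 0.000117) and by 0.65 ± 0.12 in females (adjusted p = 0.00514). Reads of the *Ube2c* strand that fell on *Tnnc2* numbered 299 to 508 in no-UVB males and 107 to 217 in UVB males. In females they numbered 247 to 430 without UVB and 57 to 277 with it. The direction for *Ube2c* thus depended on how the reads were counted, and which gene those reads came from was not tested.

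**Figure D3:**
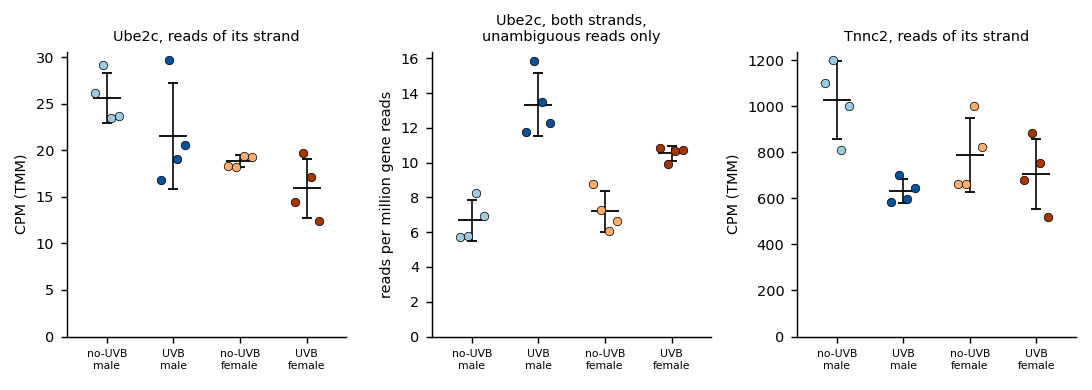
*Ube2c* and the overlapping muscle gene *Tnnc2* in each mouse (points), with mean and SD of 4 mice (bars). Left, CPM from reads of the *Ube2c* strand. Middle, reads of either strand that touch *Ube2c* alone, as CPM of the gene reads, which lay between 5.75 and 8.79 without UVB and between 9.90 and 15.8 with it. Right, CPM of *Tnnc2*, highest in no-UVB males.

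At the centromere and kinetochore, where spindle fibres attach, all 7 genes rose in males, against 29.0% of all genes, and 4 in females, against 12.8%. *Spc25* and *Spc24*, of the NDC80 complex that grips microtubules, rose by 1.46 ± 0.15 and 0.88 ± 0.26 in males. In females they rose by 0.995 ± 0.16 and 0.76 ± 0.16, so that *Spc25* had the largest rise of the 43 members in both sexes. *Ndc80*, of the same complex, rose by 1.04 ± 0.14 and 0.64 ± 0.15, and its partner *Nuf2* rose by 0.85 ± 0.16 in males and was at 0.46 ± 0.19 in females (edgeR, adjusted p = 0.122). *Cenpe*, for a kinetochore motor, rose by 1.22 ± 0.20 in males and 0.49 ± 0.11 in females. *Cenpa*, for the histone variant that marks centromeres, rose by 0.62 ± 0.17 in males and was at 0.31 ± 0.12 in females (edgeR, adjusted p = 0.117).

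*Cenpf* (chr1:189372752-189420315, minus strand), for a large kinetochore protein of G2 and M phase, was the highest of this role by CPM. It was at 13.7, 15.4, 25.8 and 17.8 CPM in no-UVB males and at 27.9, 31.6, 30.3 and 27.7 CPM in UVB males. Female values were 16.05, 21.2, 20.1 and 15.0 CPM without UVB and 17.5, 21.2, 26.6 and 20.6 CPM with it. Only the male groups did not overlap, and its log2 fold change was 0.71 ± 0.17 in males (edgeR, adjusted p = 0.00704) and 0.26 ± 0.15 in females (adjusted p = 0.273).

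The 6 genes of spindle motors and microtubule proteins had a median response of 1.01 in males and 0.47 in females. All 6 rose in males, against 29.0% of all genes, and 5 of 6 in females, against 12.8%. *Kif11* (chr19:37364799-37410307, plus strand), for the motor that pushes the spindle poles apart, was at 13.0, 12.3, 17.96 and 15.98 CPM in no-UVB males and at 27.3, 29.8, 31.5 and 28.4 CPM in UVB males. The females had 15.9, 16.5, 14.4 and 11.6 CPM without UVB and 17.5, 21.2, 23.0 and 20.3 CPM with it. Neither sex overlapped, and it rose by 1.003 ± 0.11 in males (edgeR, adjusted p = 3.68e-05) and 0.50 ± 0.12 in females (adjusted p = 0.0223). *Ckap2*, for a spindle stabilizer, rose by 1.31 ± 0.21 and 0.94 ± 0.12. *Hmmr*, for a spindle protein that also binds hyaluronan, rose by 1.01 ± 0.17 and 0.68 ± 0.14. *Tpx2*, for the activator of Aurora A on the spindle, rose by 0.95 ± 0.14 and 0.44 ± 0.10, and *Nusap1*, for a microtubule bundler, by 0.90 ± 0.16 and 0.43 ± 0.12.

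*Kif2c* (chr4:117016830-117039836, minus strand) encodes a kinesin that takes microtubules apart at the centromere. It was at 3.12, 3.68, 4.93 and 4.41 CPM in no-UVB males and at 8.90, 9.50, 7.65 and 9.22 CPM in UVB males, far apart. In females it was at 4.67, 5.07, 4.15 and 3.63 CPM without UVB and at 4.68, 6.95, 6.17 and 4.92 CPM with it, and the groups overlapped. The log2 fold change was 1.15 ± 0.15 in males (edgeR, adjusted p = 7.79e-05) and 0.39 ± 0.16 in females (adjusted p = 0.142).

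The genes of the spindle midzone and of cytokinesis had the smallest median response among roles with more than 2 genes, 0.72 in males and 0.31 in females, with 7 of 7 higher in males and 3 of 7 in females, against 29.0% and 12.8% of all genes. The male median was 1.099 without no-UVB males 3 and 4. *Anln* (chr9:22242402-22300501, minus strand), for the contractile ring protein anillin, was at 20.4, 19.6, 35.3 and 30.2 CPM in no-UVB males and at 40.7, 45.7, 43.8 and 41.0 CPM in UVB males. Female values were 20.2, 23.6, 22.9 and 21.0 CPM without UVB and 24.6, 26.5, 32.5 and 28.9 CPM with it. The groups were apart in both sexes, although no-UVB males 3 and 4 lay above every no-UVB female, and the rise was 0.72 ± 0.18 in males (edgeR, adjusted p = 0.00826) and 0.37 ± 0.10 in females (adjusted p = 0.0304). *Kif20a*, for a midzone kinesin, rose by 0.90 ± 0.19 and 0.48 ± 0.12, and *Prc1*, for the protein that bundles midzone microtubules, by 0.77 ± 0.15 and 0.39 ± 0.10.

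The other 4 genes of this role passed the test in males and not in females. None of the 4 passed the test of the difference between the sexes (edgeR, adjusted p from 0.293 to 0.721). *Kif20b*, for a related kinesin, rose by 0.77 ± 0.18 in males and was at 0.31 ± 0.14 in females. *Kif23* and *Racgap1* encode the pair of proteins that make up centralspindlin, and rose by 0.51 ± 0.12 and 0.50 ± 0.12 in males, with 0.24 ± 0.10 and 0.20 ± 0.10 in females. *Ect2*, for the exchange factor that centralspindlin recruits to start the furrow, rose by 0.45 ± 0.18 in males (edgeR, adjusted p = 0.0509) with overlapping groups, and was at 0.27 ± 0.13 in females. The male call for *Ect2* was lost without UVB male 2, no-UVB male 1 or no-UVB male 2 (0.34 to 0.67 over the 8 fits).

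The 2 most abundant members by CPM are also those most used to mark dividing cells. *Mki67* (chr7:135291513-135318299, minus strand), for Ki-67 of the mitotic chromosome surface, was at 56.1, 55.9, 110 and 79.4 CPM in no-UVB males and at 152, 178, 153 and 146 CPM in UVB males. The females had 79.6, 86.4, 78.2 and 63.0 CPM without UVB and 90.7, 105, 124 and 103 CPM with it. The groups did not overlap in either sex, and the no-UVB males spanned the no-UVB females. It rose by 1.08 ± 0.22 in males (edgeR, adjusted p = 0.00347) and by 0.47 ± 0.11 in females (adjusted p = 0.0203).

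*Top2a* (chr11:98883769-98915062, minus strand) encodes the topoisomerase that untangles sister chromatids. It was at 47.0, 46.6, 64.1 and 54.2 CPM in no-UVB males and at 95.9, 114, 108 and 99.0 CPM in UVB males. In females it was at 57.8, 55.3, 50.7 and 38.3 CPM without UVB and at 66.2, 76.7, 93.8 and 69.4 CPM with it. The UVB mice of each sex stood clear of its no-UVB mice, and the rise was 0.99 ± 0.10 in males (edgeR, adjusted p = 2.64e-05) and 0.61 ± 0.14 in females (adjusted p = 0.0187). Per kilobase of canonical transcript *Top2a* stood at 10.1 CPM in no-UVB males and 19.8 in UVB males, above *Mki67* with 7.34 and 15.3. On that scale the lowest members were *Mybl2* with 0.967 CPM per kilobase in no-UVB males and *Cdc25c* with 1.47 in UVB males, and only *Ube2c*, by its stranded count, stood above *Top2a*, at 26.5 and 22.3.

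**Figure D4:**
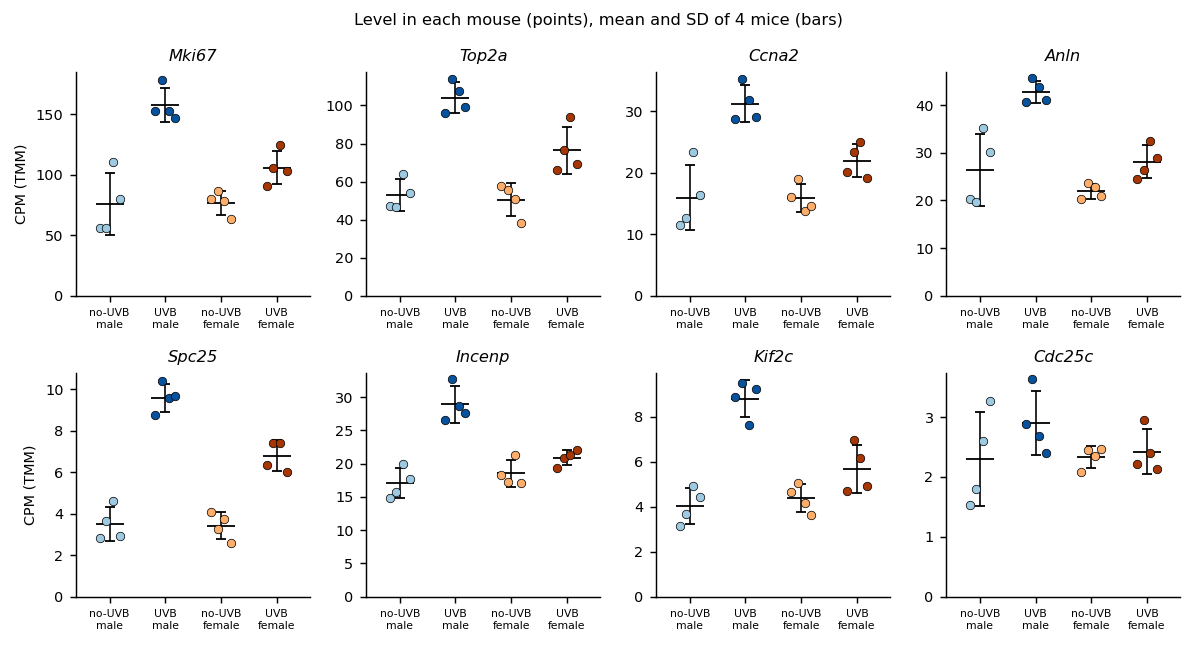
Level of 8 members in CPM in each mouse (points), with mean and SD of 4 mice (bars), on axes that start at 0. All 4 UVB males lay above all other mice for each gene but *Cdc25c*, whose groups overlapped, and the no-UVB males spread widely for *Mki67*, from 55.9 to 110 CPM.

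Whether males and females responded differently was tested as the interaction of UVB and sex over all 16 mice. The male response exceeded the female one in value for 42 of 43 members, with a median difference of 0.41 on the log2 scale against −0.02 over all genes. Past the threshold were 2 members, *Incenp* with 0.58 ± 0.14 (edgeR, adjusted p = 0.0378) and *Kif2c* with 0.75 ± 0.22 (adjusted p = 0.0787), against 2.75% of 17406 genes. With any 1 mouse left out, *Incenp* was called in 16 of 16 fits and *Kif2c* in 6. At an unadjusted p under 0.05 there were 11 members, against 9.11% of all genes, and DESeq2's Wald test called 6, against 6.77% of 15785 genes. *Cenpe* came next in edgeR, with 0.72 ± 0.23 (adjusted p = 0.101). None had a smaller male response by edgeR, at an unadjusted p under 0.05 or by DESeq2 (0 members each), against 4.25% of all genes by edgeR.

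This count depended on which no-UVB males were included. Without no-UVB male replicate 3 it was 18, against 4.21% of all genes, and without both no-UVB males with high hair markers it was 33, against 4.60% of all genes, with a median difference of 0.73. In that fit the differences were 1.03 for *Mki67* (edgeR, adjusted p = 0.00669), 1.12 for *Cenpe* (adjusted p = 0.00443) and 1.02 for *Plk1* (adjusted p = 0.0136). The male response itself then had a median of 1.25, with 42 members called against 28.9% of all genes, and 36 past 1 against 6.01%. In the other direction, the count was 5 without no-UVB female replicate 4 and 4 without UVB female replicate 3. It was 1 without any 1 of UVB males 1 and 2, no-UVB males 1 and 2, UVB females 1 and 4, and no-UVB females 1, 2 and 3. The part of the hair follicle in the no-UVB male levels was not tested beyond these values.

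**Figure D5:**
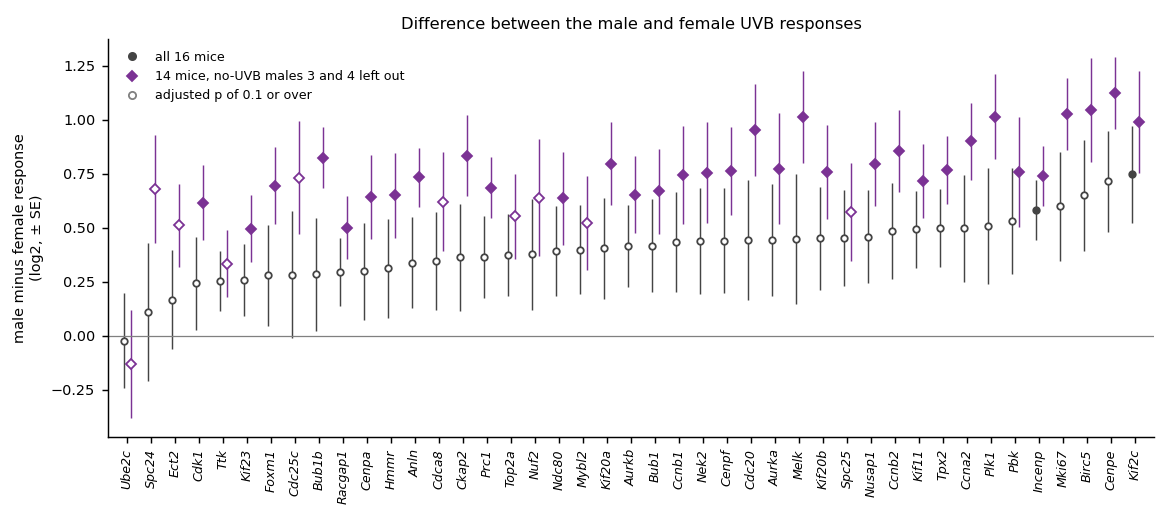
Difference between the male and female UVB responses (log2, ± SE) for each member, in order of its value over all 16 mice. Circles use all 16 mice and diamonds the 14 mice without no-UVB males 3 and 4, and filled symbols have an adjusted p under 0.1. The number of filled symbols is 2 of 43 for circles and 33 of 43 for diamonds.

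Within a treatment, the sexes were compared over the same 16 mice. Between no-UVB males and no-UVB females 1 member was higher in males, *Ube2c* by 0.44 ± 0.15 (edgeR, adjusted p = 0.0912), against 7.21% of all genes. The call for *Ube2c* was lost when any 1 of 11 mice was left out, and with the counts taken without regard to strand its difference was 0.05 (adjusted p = 0.888). No member was lower by edgeR, at the unadjusted p under 0.05 or by DESeq2 (0 members each), against 4.58% of all genes by edgeR, and the median difference was 0.01. Without no-UVB males 3 and 4, 7 members were lower in males, against 3.22% of all genes, with a median of −0.28 on the log2 scale.

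Between UVB males and UVB females 32 members were higher in males, against 12.8% of all genes, with a median of 0.47, and all 43 had a higher value in males, while 12.5% of all genes were lower there. The largest with a call was *Mybl2*, by 0.74 ± 0.14 (edgeR, adjusted p = 0.00319), followed by *Kif2c* with 0.63 ± 0.15 (adjusted p = 0.0122) and *Cdc20* with 0.62 ± 0.19 (adjusted p = 0.0364). *Incenp* differed by 0.46 ± 0.10 (adjusted p = 0.00556). The smallest difference was that of *Kif23*, 0.21 ± 0.12 (adjusted p = 0.241). For 31 members the groups did not overlap, against 11.5% of all genes. The count fell to 18 without UVB male replicate 2, where 9.29% of all genes were called, and to 13 without UVB female replicate 1, where 7.46% were.

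Markers of other cell types moved between the same groups. The 7 fibroblast markers summed to 79554 to 86804 CPM in no-UVB males, 28720 to 39659 in UVB males, 19732 to 20999 in no-UVB females and 12643 to 22516 in UVB females. The 6 skeletal muscle markers summed to 15164 to 19663 CPM in no-UVB males, 9054 to 11514 in UVB males, 9590 to 14094 in no-UVB females and 10579 to 14016 in UVB females. Thus no-UVB males, the group the male response is measured against, had the highest sums of both. The fibroblast markers did not all move together. Of the 7, 4 were higher in no-UVB males than in no-UVB females by edgeR, against 7.21% of all genes, and 1 was lower at an unadjusted p under 0.05. The 11 leukocyte markers were all at 1 CPM or more in each group and summed to 1216 to 1457 CPM in UVB males and 1340 to 1748 in no-UVB males, and to 1212 to 1730 and 1395 to 1978 CPM in the females. Of these 11, 5 were lower after UVB in males and 3 in females (edgeR, adjusted p under 0.1), against 30.5% and 10.6% of all genes. In males, leaving out no-UVB males 3 and 4 gave 4 lower and 1 higher, against 27.1% and 28.9% of all genes. The 5 melanocyte markers summed to 24.2 to 33.6 CPM in no-UVB males, 29.5 to 46.0 in UVB males, 29.6 to 97.4 in no-UVB females and 35.7 to 61.0 in UVB females. In males 3 of the 5 were higher after UVB, against 29.0% of all genes, with a median of 0.63. Without no-UVB males 3 and 4, only 1 of the 5 was higher in males, against 28.9% of all genes, with a median of 0.41. In females 0 of 5 were called in either direction or had an unadjusted p under 0.05, with a median of −0.18, and 0 of 5 differed between the responses, with a median of 0.71. The 5 endothelial markers summed to 282 to 431 CPM over the 16 mice, and 0 of 5 were called in either sex (1 higher in females at an unadjusted p under 0.05). The male count was also 0 of 5 without no-UVB males 3 and 4. The part of these tissues in the member values was not tested. With the 100 most abundant genes left out of the scaling, the same 41 members were higher in males, against 30.0% of all genes.

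Other genes of the mitotic machinery were taken from lists written from general knowledge. Of 116 listed, 115 were tested, and 80 were higher and 9 lower in males, against 29.0% and 30.5% of all genes. In females 44 were higher and 3 lower, against 12.8% and 10.6%. Without no-UVB males 3 and 4, 82 were higher and 9 lower in males, against 28.9% and 27.1% of all genes. For each single list described next, leaving out those mice moved the male counts by at most 1 gene in either direction. Of 29 other kinesin and spindle genes 19 were higher after UVB in males and 11 in females, against 29.0% and 12.8% of all genes, none lower by edgeR or at an unadjusted p under 0.05 (0 genes each), with medians of 0.63 and 0.24. *Gtse1*, for a spindle protein that also restrains p53, rose by 1.95 ± 0.17 in males and 1.38 ± 0.17 in females, more than any of the 43 members. *Kif18b*, for a kinesin of astral microtubules, rose by 1.59 ± 0.21 and 1.03 ± 0.15. *Numa1* and *Haus5*, of the spindle pole and of the augmin complex, were at −0.06 ± 0.06 and −0.04 ± 0.20 in males.

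Of 34 other centromere and kinetochore genes 31 were higher and 1 lower in males, against 29.0% and 30.5% of all genes. In females 16 were higher and 1 lower, against 12.8% and 10.6%, and the medians were 0.68 and 0.42. *Ska3* and *Ska1*, of the complex that couples kinetochores to shrinking microtubules, rose by 1.36 ± 0.26 and 1.33 ± 0.32 in males. In females they rose by 0.67 ± 0.17 and 0.71 ± 0.24. *Mad1l1*, for the checkpoint protein MAD1, was the gene that fell, by 0.83 on the log2 scale in males (edgeR, adjusted p = 5.21e-05) and by 0.86 in females (adjusted p = 0.000746), while *Cenpp* was at −0.21 ± 0.21 in males.

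Among 20 genes of condensin, cohesin and separase, 15 were higher and 2 lower in males, against 29.0% and 30.5% of all genes, and 8 were higher and 1 lower in females, against 12.8% and 10.6%. *Cdca5*, for the cohesin protector sororin, rose by 1.55 ± 0.21 in males and 0.88 ± 0.17 in females. *Ncapg*, for a condensin subunit, rose by 1.01 ± 0.18 and 0.56 ± 0.15. The cohesin subunit gene *Stag1* fell by 0.46 and 0.41, and *Pttg1*, for securin, fell by 0.20 in males and was at 0.15 ± 0.10 in females.

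The 17 genes of the anaphase-promoting complex and its regulators had medians near 0, at 0.02 in males (−0.05 without no-UVB males 3 and 4) and 0.08 in females. In males 5 were higher and 4 lower, against 29.0% and 30.5% of all genes, and in females 1 was higher, against 12.8%. The highest was *Fbxo5*, for the inhibitor EMI1, with a rise of 0.81 ± 0.14 in males and 0.56 ± 0.13 in females. The core subunit gene *Cdc27* rose by 0.42 ± 0.06 in males, while *Anapc13* and *Anapc5*, of the same core, fell by 0.30 and 0.26.

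Of 15 tested genes of mitotic entry and cytokinesis, out of 16 listed, 10 were higher and 2 lower in males, against 29.0% and 30.5% of all genes. In females 8 were higher and 1 lower, against 12.8% and 10.6%, and the medians were 0.57 and 0.36. *Mastl*, for the Greatwall kinase that keeps mitotic phosphates in place, rose by 1.33 ± 0.22 and 0.79 ± 0.14. *Shcbp1*, for a midbody protein, rose by 1.14 ± 0.22 and 0.57 ± 0.19. The gene of the CDK1 inhibitor kinase WEE1, *Wee1*, fell by 0.98 in males (edgeR, adjusted p = 0.0473) and was at −0.24 ± 0.19 in females. *Cdc25b*, for the phosphatase that starts CDK1 activation, was at −0.19 ± 0.10 in males and fell by 0.29 in females.

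Of the 11 subunits of DREAM and of the B-MYB and MuvB complex 4 were higher and 3 lower in males, against 29.0% and 30.5% of all genes. In females 2 were higher and 1 lower, against 12.8% and 10.6%. The medians were 0.13 in males, or 0.23 without no-UVB males 3 and 4, and 0.02 in females. *Tfdp1*, for the E2F partner DP1, rose by 0.61 ± 0.06 and 0.33 ± 0.08, and *Rbl1*, for the pocket protein p107, by 0.38 ± 0.10 and 0.28 ± 0.07. *Lin52*, of the MuvB core, fell by 0.50 in males, and *Tfdp2* fell by 0.39 in males and 0.32 in females.

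Genes of DNA replication and the G1/S transition rose in most cases. Of 41, 37 were higher and 1 lower in males, against 29.0% and 30.5% of all genes, and 30 higher and 1 lower in females, against 12.8% and 10.6%. The medians were 0.71 and 0.39. *Rrm2*, for a subunit of ribonucleotide reductase, rose by 1.46 ± 0.19 in males and 0.79 ± 0.09 in females. *Orc1*, for the largest origin recognition subunit, rose by 1.43 ± 0.34 and 0.96 ± 0.23. *Pola1*, for the catalytic subunit of the DNA polymerase that makes primers, fell by 0.46 and 0.55, and *E2f1* was at −0.13 ± 0.10 and 0.24 ± 0.10.

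The inhibitors of the cell cycle were measured in the same skin. Of 16 listed, 15 were tested in males, with 5 higher and 3 lower, against 29.0% and 30.5% of all genes. In females 16 were tested, with 4 higher and 0 lower by edgeR (1 lower at an unadjusted p under 0.05), against 12.8% and 10.6%. *Cdkn1a*, for the CDK inhibitor p21, rose by 1.02 ± 0.06 in males (edgeR, adjusted p = 7.12e-07), from 164 to 327 CPM, and by 1.09 ± 0.10 in females (adjusted p = 0.000197), from 138 to 292 CPM. *Sfn*, for 14-3-3 sigma, which keeps CDK1 out of the nucleus, rose by 1.72 ± 0.17 and 0.86 ± 0.18. *Cdkn1c*, for p57, fell by 0.73 in males and was at 0.23 ± 0.14 in females. *Rb1*, for the retinoblastoma protein, fell by 0.19 in males and was at −0.19 ± 0.07 in females. The difference between the male and female responses was −0.08 for *Cdkn1a* (edgeR, adjusted p = 0.731), 0.85 for *Sfn* (adjusted p = 0.0929) and −0.97 for *Cdkn1c* (adjusted p = 0.052).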

How the data were processed

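RNA from whole dorsal skin was sequenced by the authors with a directional poly(A) kit. They aligned the reads with STAR to GRCm39 and deposited, for each of the 16 mice, whole-number counts per Ensembl gene with no normalization. The count of the strand made by the kit was used, with 0 reads listed as mapping to several places. Names and positions came from GENCODE M39, which held 54749 of 55359 identifiers. Libraries of a group differed by 10.4 to 109 times the chi-square that sampling noise would give, so none was a duplicate.

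Counts were fitted in R 4.3.3 with edgeR 4.0.16 (filterByExpr, TMM, robust quasi-likelihood test, all genes) and DESeq2 1.42.0, each sex alone for its response and all 16 mice for the interaction and the sexes within a treatment, with no covariate. A gene was called at a Benjamini-Hochberg adjusted p under 0.1. The fits were also run on simulated counts with known changes, and no result given here rests on that run. Python 3.11.15, pandas 2.3.3 and matplotlib 3.10.9 gave the tables and plots. Every member was named, and values in every mouse were given for the most abundant of each role, for transcription factors and proliferation markers, for members called in the interaction and for members called in neither sex. Of each other list the largest and smallest 2 male responses were named, with *Cdkn1a*. Members, lists and tests were chosen with earlier results of these data known. The study's methods name DESeq2 with shrunken fold changes.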

Additional observations from a re-analysis of the deposited data

Results flagged for a closer look

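Among the 172 groups of 4 mice (43 members in 4 groups), 3 held a mouse far from the other 3, a number below the 1 in 20 that chance alone gives. *Mybl2* was at 4.63 CPM in no-UVB male replicate 3, a mouse with high hair markers, against 3.31 to 3.50 CPM in the other no-UVB males. *Bub1* was at 3.08 CPM in no-UVB female replicate 4, against 3.72 to 3.80 CPM in the others. *Nek2* was at 4.73 CPM in UVB female replicate 1, against 6.25 to 6.56 CPM in the other UVB females. The responses of 2 members differed between the sexes by the test of the difference, *Incenp* with 0.58 (edgeR, adjusted p = 0.0378) and *Kif2c* with 0.75 (adjusted p = 0.0787) as log2 values, both larger in males. Of all genes 2.75% were called in that direction. With any 1 mouse left out *Incenp* was called in 16 of 16 fits and *Kif2c* in 6 of 16. *Incenp* was higher in 4 of 4 UVB males than in any no-UVB male, and so was *Kif2c*.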

How the results depend on the processing

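Of 164 counts and medians recomputed under another setting, 149 stayed within 1.5 times their value or within the spread between mice. In males, 7 members were past 1 with upper quartile scaling, against 14, and 36 without no-UVB males 3 and 4. The difference between the responses was called for 6 members by DESeq2's Wald test and for 33 without those males, against 2. The 1 member higher in no-UVB males than in no-UVB females became 0 with counts without regard to strand, DESeq2 size factors, upper quartile scaling, every gene with at least 1 count, the 100 most abundant genes left out of the scaling, or those males left out. In the last, 7 members were lower. Using only the bases before the start, 12 members held the homology region and 9 both elements. Leaving out no-UVB males 3 and 4, and the 100 most abundant genes, were chosen after seeing the data.

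*Ube2c* changed sign without regard to strand, to 1.01 in males, 0.65 in females and 0.35 for the difference between them. That difference, −0.02, was also above 0 with DESeq2 size factors (0.0084), DESeq2's test (0.014) and the 100 most abundant genes left out (0.013), and ran from −0.21 to 0.096 with a mouse left out. With a mouse left out, *Cdc25c* in females ran from −0.052 to 0.12, and the difference for *Spc24* from −0.056 to 0.41. Leaving out each mouse gave 6 to 28 members past 1 in males and 0 to 1 in females, and 0 to 1 lower in males, in females and between the no-UVB sexes. It gave 1 to 18 for the difference between the responses, 13 to 36 between the UVB sexes and 0 to 1 between the no-UVB sexes. The cause of these changes was not tested.

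Deviations of mice with equal replicate numbers correlated by −0.115 to 0.217, and the mice were treated as unpaired. Unequal numbers were not compared, so these values cannot exclude a pairing. With the replicate block, 41 members rose and 1 fell in males (*Ube2c*), against 28.3% and 29.9% of all genes. In females 29 rose with 1 past 1, against 11.6% and 1.66%, and 3 differed between the sexes, against 3.23%. With 4 mice per group and 33 or more reads per member, differences near the standard errors of 0.08 to 0.26 could not be told from the spread between mice.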
